A study of Mus musculus with 8 samples.

Results

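The interferon-induced transmembrane (Ifitm) genes of the mouse that were described here are Ifitm1, Ifitm2, Ifitm3 and Ifitm6. They are 4 of the 16756 gene names with at least 1 unique molecular identifier (UMI, a tag that counts each captured RNA molecule once) in the 2 UMI tables of the study. The members were chosen by name because they belong to 1 gene family, and all 4 passed the rule of having UMIs in both tables after the cell filter. That filter kept cells with 250 to 3000 detected genes, at least 500 UMIs and no more than 5% of UMIs from mitochondrial genes.

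The cells were CD45+ leukocytes sorted from the paw joints of C57BL/6 mice, 10 weeks old, with arthritis induced by serum from K/BxN mice (100 µL per injection, given at day 0 and repeated at days 2 and 9). Every mouse then received, at day 12, 2000000 bone marrow-derived monocytes taken from arthritic mice. In the Mono+MCTR3 group (4 mice) these monocytes had first been kept for 90 min with 1 nM MCTR3, a lipid mediator of the maresin conjugates in tissue regeneration family, and in the Mono group (4 mice) with vehicle. The joints were taken on day 22, and both groups carried the arthritis and the cell transfer, so that the treatment of the transferred cells was the one labelled difference. The UMI tables carry no mark of the transferred cells, so host and transferred monocytes cannot be told apart in them. Barcode suffixes tell the 4 mice of each group apart, and the mice are called Mono+MCTR3 mouse 1 to 4 and Mono mouse 1 to 4 by suffix. Equal numbers in the 2 groups do not pair mice.

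Ifitm proteins are small membrane proteins that restrict the entry of enveloped viruses at the plasma membrane and in endosomes. IFITM3, the best studied member, acts mainly in endosomes and lysosomes, and IFITM1 is found more at the cell surface. Transcription of several members rises when interferons signal through STAT and IRF factors, which bind the interferon-stimulated response element and the gamma-activated site. Ifitm6 is a rodent member that has been studied less, and its role is left out here for that reason.

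After filtering, 10256 of 10538 barcodes were kept, 5015 from Mono+MCTR3 mice and 5241 from Mono mice. Mice held 758 to 1913 cells and 1731045 to 6009009 UMIs each, with a median of 1685.5 to 2428 UMIs per cell. Both the lowest and the highest total came from the Mono+MCTR3 group (mice 4 and 2). Pairs of mice shared 0 to 8 cell barcodes, and a doublet caller marked 52 cells (0.507%). Clustering without the Ifitm genes gave 16 clusters, of which 14 could be named from marker genes. Of these, 6 clusters with 6898 cells were neutrophil-like, and each detected 12 to 14 of the 14 neutrophil markers. The mononuclear phagocytes comprised a classical monocyte-like cluster (303 cells, with MHC class II genes among its leading genes) and a nonclassical monocyte-like cluster (47 cells). The cluster of 303 cells also detected 12 of 13 macrophage markers. Divided more finely (resolution 1.0), the phagocytes formed classical monocyte-like (167 cells), macrophage-like (136 cells) and nonclassical monocyte-like (47 cells) clusters. The cluster of 303 cells thus holds macrophage-like cells as well as monocyte-like ones.

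The 4 genes lie within 63088 bases of chromosome 7 (GRCm38, GENCODE annotation). Ifitm2 (ENSMUSG00000060591, chr7:140954837-140955987, minus strand, 2 exons) comes first. It is followed by Ifitm1 (ENSMUSG00000025491, chr7:140967221-140969825, plus strand, 3 exons), Ifitm3 (ENSMUSG00000025492, chr7:141009586-141010770, minus strand, 2 exons) and Ifitm6 (ENSMUSG00000059108, chr7:141015699-141017924, minus strand, 3 exons). Ifitm1 is thus the only member on the plus strand. Because the members are close relatives, reads near their 3′ ends can be shared. Of the 351 stretches of 50 bases in the last 400 bases, Ifitm6 shared 0 with other genes, Ifitm1 shared 7 (1.99%), Ifitm3 shared 43 (12.3%, with Ifitm1 and Gm7676) and Ifitm2 shared 89 (25.4%, with 6 predicted genes). The levels of Ifitm2 and Ifitm3 are therefore less certain than that of Ifitm6 to the extent that the counting dropped such reads.

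The sequences upstream of the members are shown because the results below turn on 2 patterns in which the members differ, neutrophil stage and interferon response. Each stretch is the 100 bases that end just before the GENCODE transcript start that lies farthest upstream of the RefSeq start within the 250 bases before it, read 5′ to 3′ on the gene's strand. Ifitm2 and Ifitm3 have 1 transcript each in GENCODE. For Ifitm1 and Ifitm6, which have 3 each, the stretch lies inside the gene, in an intron of 1 longer transcript of Ifitm1 and of 2 longer transcripts of Ifitm6, and overlaps 0 annotated exons of its gene. They are chr7:140967928-140968027 on the plus strand for Ifitm1 and, on the minus strand, chr7:140955988-140956087 for Ifitm2, chr7:141010771-141010870 for Ifitm3 and chr7:141016909-141017008 for Ifitm6 (GRCm38). Capitals mark matches to GAAANNGAA, the core of the interferon-stimulated response element, or to TTCNNNGAA, the core of STAT-binding gamma-activated sites, searched on both strands.
Ifitm1: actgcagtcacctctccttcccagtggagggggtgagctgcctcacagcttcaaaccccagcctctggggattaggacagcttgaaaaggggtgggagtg
Ifitm2: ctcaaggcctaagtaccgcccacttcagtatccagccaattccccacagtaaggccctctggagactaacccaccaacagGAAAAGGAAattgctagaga
Ifitm3: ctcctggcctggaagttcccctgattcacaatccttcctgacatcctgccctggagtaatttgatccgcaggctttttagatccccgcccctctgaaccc
Ifitm6: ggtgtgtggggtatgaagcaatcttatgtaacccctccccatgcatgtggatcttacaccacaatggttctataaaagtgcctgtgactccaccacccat

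Matches around the start sites were read in the RefSeq promoter windows of the GRCm38 build, which run from 250 bases before to 50 bases after each RefSeq start and held all 4 members. Below are 3 windows of 30 bases, shown because they hold the matches of Ifitm3, of Ifitm6 and, for comparison, of Isg15. Their positions on the minus strand are chr7:141010715-141010744 for Ifitm3 (positions 1 to 30, counted from the RefSeq start), chr7:141016884-141016913 for Ifitm6 (-21 to 9) and chr4:156200872-156200901 for Isg15 (-83 to -54).
Ifitm3: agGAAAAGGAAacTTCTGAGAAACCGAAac
Ifitm6: cccatatgaacTTCCTTGAAacaagagctt
Isg15: cgtagGAAAAGGAAACCGAAACAGAAaata

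Ifitm3 held 2 GAAANNGAA matches, at 3 to 11 and 20 to 28, and a TTCNNNGAA match at 14 to 22 that overlaps the second of them. Ifitm2 held 1 GAAANNGAA match, at -46 to -38, and Isg15 held 3 overlapping ones between -78 and -58. Ifitm6 held a TTCNNNGAA match at -10 to -2 and no GAAANNGAA match. Neither set of letters was present in the Ifitm1 window, which says nothing about the binding of any factor there. In the whole table of 32851 promoters, 2812 (8.56%) held GAAANNGAA and 2726 (8.30%) held TTCNNNGAA. Of 47 promoters matched to a list of 60 interferon-stimulated genes, 28 (59.6%) held GAAANNGAA and 11 (23.4%) held TTCNNNGAA.

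Among the cell classes, Ifitm2 and Ifitm3 were transcripts of neutrophils and mononuclear phagocytes. Ifitm6 was one of neutrophils and mainly the monocyte-like phagocytes, and Ifitm1 was one of neutrophils and of a few phagocytes. Levels are UMIs per 1000000 UMIs of the cells summed in each mouse (CPM), given as the lowest, median and highest mouse with at least 10 cells. They come from a 3′ assay and are compared between cells, not between genes. Ifitm3 had 3593, 3889 and 4678 CPM in mononuclear phagocytes (6 mice), against medians of 12.5 CPM in B cells, 18.9 CPM in T cells and 31.1 CPM in NK cells (8 mice each). Ifitm2 had 1111, 1479 and 1656 CPM in mononuclear phagocytes and medians of 36.2, 29.3 and 30.6 CPM in B, T and NK cells. Ifitm6 had 409, 495 and 682 CPM in mononuclear phagocytes and medians of 1.69, 11.4 and 7.14 CPM in those lymphocytes. The ranges of phagocytes, taken as 1 class, and of lymphocytes did not overlap for these 3 genes. At resolution 1.0, however, Ifitm6 had 50.8 to 122 CPM in macrophage-like cells, against 691 to 956 CPM in classical monocyte-like cells. The macrophage-like range overlapped that of T cells (4.27 to 90.3 CPM). Ifitm1 spread far more widely among phagocytes, with 7.03, 102 and 756 CPM, and overlapped NK cells (0 to 43.3 CPM). The lowest of these, Mono mouse 3, rests on 2 UMIs.

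The lymphocyte levels were read against RNA that is free in the droplets. For 8 neutrophil genes (S100a8, S100a9, Retnlg, Lcn2, Camp, Ngp, Mmp8 and Ltf) the level in lymphocytes was between 0.846% and 3.11% of the level in neutrophils. The Ifitm genes had 0.438% to 3.07% of their neutrophil level in the same cells. Within T and NK cells none exceeded the highest of the 8 genes, whereas in B cells Ifitm2 (2.19%) and Ifitm3 (2.33%) were above the highest of them (1.71%). In mononuclear phagocytes these 8 genes had 0.948% to 5.79% of their neutrophil level, whereas Ifitm6 had 31.1%, Ifitm2 87.0% and Ifitm3 330% of theirs. Ifitm1 had 34.9%, but 522 of its 590 phagocyte UMIs came from 11 cells described below. Those 11 cells were picked by their Ifitm1 UMIs after the values were seen, so leaving them out lowers the level by construction. Without them the other 339 phagocytes held 68 Ifitm1 UMIs, or 32.7 CPM, which is 4.20% of the neutrophil level. That is below Mmp8 (5.79%) but above each of the others of the 8 genes (0.948% to 1.86%). Whether these UMIs were free RNA was not tested. With each cell thinned to 1000 UMIs, an Ifitm3 UMI was present in 79.9% of phagocytes, 61.2% of neutrophils and 1.83% of B cells. Without thinning these shares were 91.4%, 75.1% and 4.95%, at median depths of 6348, 1712 and 2285 UMIs. An Ifitm1 UMI was present in 4.89% of phagocytes, 32.7% of neutrophils and 0.524% of B cells after thinning (16%, 40.3% and 2.61% before).

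Neutrophils mature through stages that are told apart by their transcripts, from cells that make secondary granule proteins (lactoferrin, Ltf; cathelicidin, Camp; neutrophilic granule protein, Ngp) to mature cells and to cells with inflammatory transcripts such as Cxcl2 and Il1rn. The 6 neutrophil-like clusters were 2 secondary granule clusters (7, with 630 cells, and 8, with 595), a cluster rich in stefins, which are cystatin-type protease inhibitors (1, with 1745), a mature cluster (0, with 2183), an inflammatory cluster (2, with 1542) and a cluster led by interferon-stimulated genes such as Isg15, Rsad2 and Ifit3 (10, with 203). The 4 Ifitm genes took 3 different courses across these clusters. Ifitm6 was highest in the granule clusters, Ifitm1 and Ifitm2 were highest in the later ones, and Ifitm3 was nearly level except in the interferon response cluster. These courses cover the 6 clusters only. An unnamed cluster of 106 cells, led by hemoglobin, granule and cycling genes, also detected 13 of 14 neutrophil markers and stands outside them. Its medians over 5 mice were 511 CPM for Ifitm6, 223 CPM for Ifitm1, 446 CPM for Ifitm2 and 307 CPM for Ifitm3. The early and late courses of Ifitm6 and Ifitm1 were known when the genes were chosen, so that the values that follow are a description, with no test.

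Ifitm6 had 3387, 3771 and 4060 CPM in granule cluster 7 (lowest, median and highest of 8 mice), and a UMI of it was found in 630 of 630 cells. In granule cluster 8 it had 2208, 2785 and 3222 CPM, and in the stefin-high cluster 738, 1025 and 1408 CPM. These 3 clusters overlapped neither each other nor the clusters below them. The interferon response, mature and inflammatory clusters had medians of 467, 297 and 218 CPM, and their ranges overlapped. Although Ifitm6 was left out of the genes used for clustering, it ranked among the 10 leading genes of both granule clusters, together with Ltf, Camp, Ngp and Cd177.

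Ifitm1 took the opposite course. It had 5.49, 40.5 and 55.1 CPM in granule cluster 7, with a UMI in 12.1% of the cells, and 56.2, 99.2 and 195 CPM in granule cluster 8. Its median was 603 CPM in the stefin-high cluster, 1186 CPM in the mature cluster, 1566 CPM in the interferon response cluster and 1631 CPM in the inflammatory cluster. Both granule clusters lay below every later cluster in all 8 mice, and the later clusters overlapped each other. The width of those ranges came from the spread between mice. In the inflammatory cluster, for instance, they ran from 995 to 2671 CPM, and Mono mouse 4 had the lowest value in each of the 4 later clusters.

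Ifitm2 moved in the same direction as Ifitm1, over a smaller range. Its medians were 603 CPM in granule cluster 7, 1064 CPM in granule cluster 8, 1520 CPM in the stefin-high cluster, 2107 CPM in the mature cluster, 2816 CPM in the interferon response cluster and 3588 CPM in the inflammatory cluster, with overlap between neighbours. Ifitm3 medians lay between 1073 and 1303 CPM in the 5 clusters other than the interferon response cluster. In that cluster Ifitm3 had 3729, 5078, 4060 and 4295 CPM in Mono+MCTR3 mice 1 to 4 and 3194, 4941, 3817 and 7139 CPM in Mono mice 1 to 4. Its lowest mouse there was above the highest mouse of any other neutrophil cluster, and its range overlapped that of the classical monocyte-like cluster (3457, 3742 and 4618 CPM). The latter range is that of a mixture. At resolution 1.0, Ifitm3 had 4563 to 6670 CPM in classical monocyte-like cells and 1172 to 2020 CPM in macrophage-like cells. The values in the interferon response cluster came from 10 to 63 cells per mouse.

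**Figure D1:**
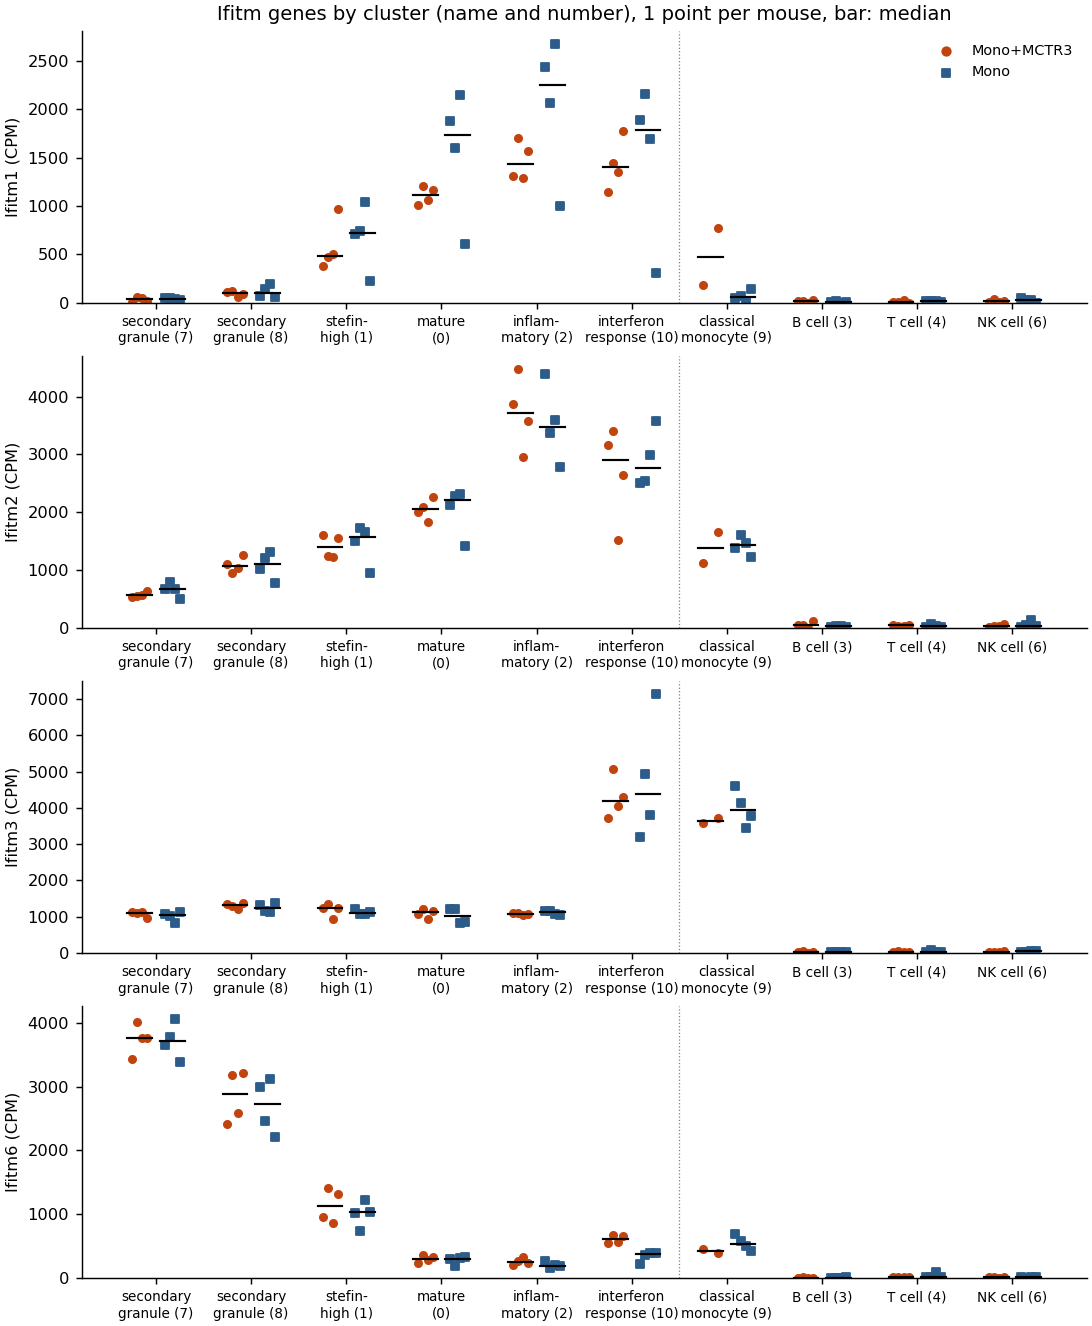
CPM of each Ifitm gene (1 panel per gene, linear axis from 0) in 6 neutrophil-like clusters, the classical monocyte-like cluster and 3 lymphocyte clusters, with 1 point per mouse (circles, Mono+MCTR3; squares, Mono) and bars at the median of each group. Ifitm6 is highest in the secondary granule clusters (medians over all mice of 3771 and 2785 CPM), Ifitm1 and Ifitm2 in later clusters, and Ifitm3 in the interferon response and monocyte clusters.

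Expressed within each mouse as the log2 ratio of the granule clusters to the mature and inflammatory clusters, the stage difference was 3.66 ± 0.26 for Ifitm6 (SD, n = 8 mice, range 3.45 to 4.22). It was -4.33 ± 0.29 for Ifitm1 (range -4.90 to -4.05) and -1.71 ± 0.22 for Ifitm2. For Ifitm3 it was 0.08 ± 0.18, with mice on both sides of 0 (-0.15 to 0.40). The log2 ratio of the interferon response cluster to all other neutrophils was 1.97 ± 0.37 for Ifitm3 (1.42 to 2.67), 0.87 ± 0.50 for Ifitm1, 0.72 ± 0.57 for Ifitm2 and -1.72 ± 0.60 for Ifitm6. Thus the gene with the least change along stage was the one with the highest ratio in the interferon response cluster. The other neutrophils include the granule clusters, so the ratios of the other genes mix stage with interferon response. The Ifitm6 median in the interferon response cluster (467 CPM) was above those of the mature (297 CPM) and inflammatory (218 CPM) clusters, with overlapping ranges. The Ifitm1 and Ifitm2 medians there lay between those of the mature and inflammatory clusters.

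A granule score gave a view of stage that does not depend on cluster borders. It is the log2 ratio of granule and precursor transcripts to mature transcripts in each neutrophil, and the neutrophils were divided into 5 equal parts from the highest score (part 1, 1380 cells) to the lowest. A part is a range of the score and not a cell type, and the median depth per cell went down along it, with 3790 UMIs in part 1 and 1295 in part 5. Ifitm6 had medians of 3325, 989, 428, 262 and 190 CPM in parts 1 to 5. It was lower at each of the 4 steps in every mouse except Mono mouse 3, where it was lower at 3 of them. Ifitm2 had medians of 827, 1577, 2016, 2622 and 3405 CPM and was higher at each of the 4 steps in 8 of 8 mice. Ifitm1 had medians of 66.3, 666, 1296, 1259 and 1534 CPM, most of the difference lying between parts 1 and 3. It was higher at each of the 4 steps in 2 mice (Mono+MCTR3 mouse 3 and Mono mouse 3) and at 3 of them in the other 6. Ifitm3 stayed between medians of 1111 and 1288 CPM, while Isg15 had medians of 33.8, 156, 314, 485 and 670 CPM.

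**Figure D2:**
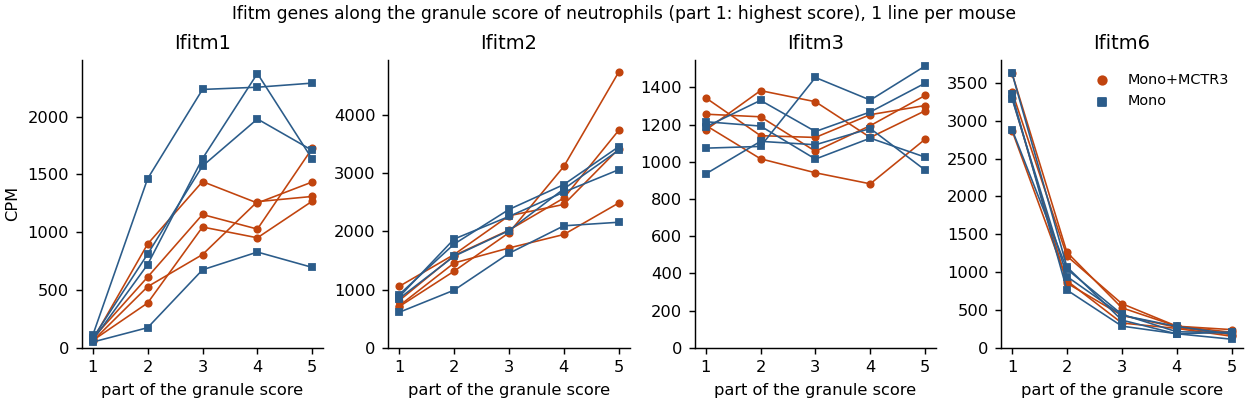
CPM of each Ifitm gene (vertical axis, linear from 0) in parts of the granule score of neutrophils, from the highest score (1) to the lowest (5), with 1 line per mouse (circles, Mono+MCTR3; squares, Mono). From part 1 to part 5, Ifitm6 is lower at the end and Ifitm1 and Ifitm2 are higher at the end in all mice, with log2 ratios of part 1 to part 5 of 3.79 to 4.77 for Ifitm6, -4.45 to -3.57 for Ifitm1 and -2.73 to -1.69 for Ifitm2, whereas Ifitm3 stays within -0.49 to 0.24.

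Patterns across the 16 clusters were compared with those of 2466 other genes by Pearson's r of log2(CPM + 10). The clusters come from the same libraries and differ in depth, so r describes likeness only. The pattern most like that of Ifitm6 was that of Lyz2, a lysozyme of myeloid cells (r = 0.94), followed by St3gal5 (0.93), Clec4a2, Prdx5 and Gapdh (0.92 each). For Ifitm1 these were Nlrp3, an inflammasome sensor (0.94), Ptgs2, the inducible cyclooxygenase (0.93), Map2k3 (0.93), Ier3 (0.92) and the chemokine Ccl6 (0.90). Fam129a (0.91) and Gda (0.89) led for Ifitm2, with Tgfbi, Eif4ebp1 and Cd9 after them. Tgfbi, App and Lgals3 led for Ifitm3 (0.88 each), with Sirpa and Lamp2 after them. Ifitm2 and Ifitm3 had r = 0.92 with each other. Over the 6 neutrophil clusters alone, r was 0.95 between Ifitm1 and Ifitm2, -0.96 between Ifitm1 and Ifitm6 and -0.94 between Ifitm2 and Ifitm6.

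Outside the main classes, Ifitm1 was abundant in a small mast cell- or basophil-like cluster (27 cells, led by Prss34, Mcpt8 and Il6). It held 521 Ifitm1 UMIs, found in 26 of the 27 cells, which is 5234 CPM over the pooled cells. The 6 mice with such cells had 2695 to 7597 CPM, from 2 to 10 cells each. Ifitm6 was represented there by 1 UMI, and the 8 neutrophil genes above by a median of 1.35% of their neutrophil level.

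The link of each Ifitm gene to Isg15, a ubiquitin-like modifier that interferons induce strongly, was read within cells. An Isg15 UMI was found in 1353 of 6898 neutrophils (19.6%). In every mouse the cells with an Isg15 UMI had higher Ifitm1, Ifitm2 and Ifitm3 and lower Ifitm6 levels than the cells without it. Ifitm3 had 1449, 1682, 1565 and 1499 CPM in cells with Isg15, against 1181, 1154, 969 and 1162 CPM in cells without, in Mono+MCTR3 mice 1 to 4. In Mono mice 1 to 4 it had 1681, 2222, 1454 and 1522 CPM in cells with Isg15, against 1151, 1066, 925 and 1080 CPM in cells without. The 2 sets of cells did not overlap over the 8 mice, and Mono mouse 2 had the widest gap.

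On the log2 scale (CPM + 10), cells with Isg15 differed from cells without by 0.58 ± 0.23 for Ifitm3, 0.43 ± 0.19 for Ifitm1, 0.41 ± 0.15 for Ifitm2 and -0.70 ± 0.35 for Ifitm6 (SD, n = 8 mice). Each direction was shared by 8 of 8 mice, and a two-sided exact sign-flip permutation test gave p = 0.0078125 for each gene, the smallest value 8 mice allow. Because the members were chosen with earlier results of these data known, this and the sign-flip p-values below are descriptive. The ratio did not differ detectably between the groups. For Ifitm3 it was 0.47 ± 0.18 in Mono+MCTR3 and 0.68 ± 0.25 in Mono mice (SD, n = 4 each; exact permutation p = 0.257, where 0.0286 is the smallest possible). For Ifitm1, Ifitm2 and Ifitm6 the exact permutation p was 0.429, 1 and 0.4 (n = 4 per group).

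Cells with an Isg15 UMI also had lower granule scores and lower median depth than cells without in every mouse, so stage moved with the link. Within parts of the granule score, Ifitm3 still differed by 0.62 ± 0.20 (0.37 to 0.94, higher in 8 of 8 mice, exact sign-flip permutation p = 0.0078125, n = 8). Ifitm1 then differed by -0.024 ± 0.38 (higher in 4 of 8 mice, exact p = 0.859) and Ifitm6 by -0.023 ± 0.20 (exact p = 0.734). Ifitm2 kept 0.13 ± 0.12 (higher in 7 of 8 mice, exact p = 0.0234). The link of Ifitm3 was therefore as large within the parts as over all neutrophils, while the means over parts of Ifitm1 and Ifitm6 were near 0. Those means average parts whose medians lay on both sides of 0. The medians ran from -0.28 (part 1) to 0.55 (part 2) for Ifitm1 and from -0.26 (part 1) to 0.25 (part 3) for Ifitm6. This split by parts was chosen after the data were seen.

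Part by part, the median log2 ratio of Ifitm3 was 0.23, 0.45, 0.77, 0.81 and 0.93 from the highest to the lowest granule score. It was above 0 in 4 of 7 mice in part 1 and in 8 of 8 mice in each other part. The number of Isg15 UMIs in a cell also went with Ifitm3. Cells with 0, 1, 2, 3 and 4 or more Isg15 UMIs had median Ifitm3 levels of 1116, 1327, 1758, 1901 and 2361 CPM over the mice, and median Ifitm6 levels of 1585, 1223, 601, 312 and 383 CPM. Within single clusters, the median log2 ratio of Ifitm3 was 0.46 in the stefin-high cluster (higher in 8 of 8 mice), 0.42 in the inflammatory cluster (6 of 8) and 0.27 in the mature cluster (7 of 8).

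Cells were also taken as responding when they had a UMI of at least 2 of 6 other interferon-induced genes (Ifit1, Ifit3, Rsad2, Oasl2, Cmpk2 and Irf7). Ifitm3 was higher in such cells by 1.28 ± 0.42 (0.71 to 1.93, 8 of 8 mice, exact sign-flip permutation p = 0.0078125, n = 8). Ifitm1 and Ifitm2 differed by 0.12 and 0.15, each above 0 in 4 of 8 mice (exact p = 0.680 and 0.383). Ifitm6 differed by -0.48 and was lower in 7 of 8 mice (exact p = 0.0234). Of the 4 genes, Ifitm3 alone was higher in responding cells in 8 of 8 mice under each of the 3 readings shown.

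**Figure D3:**
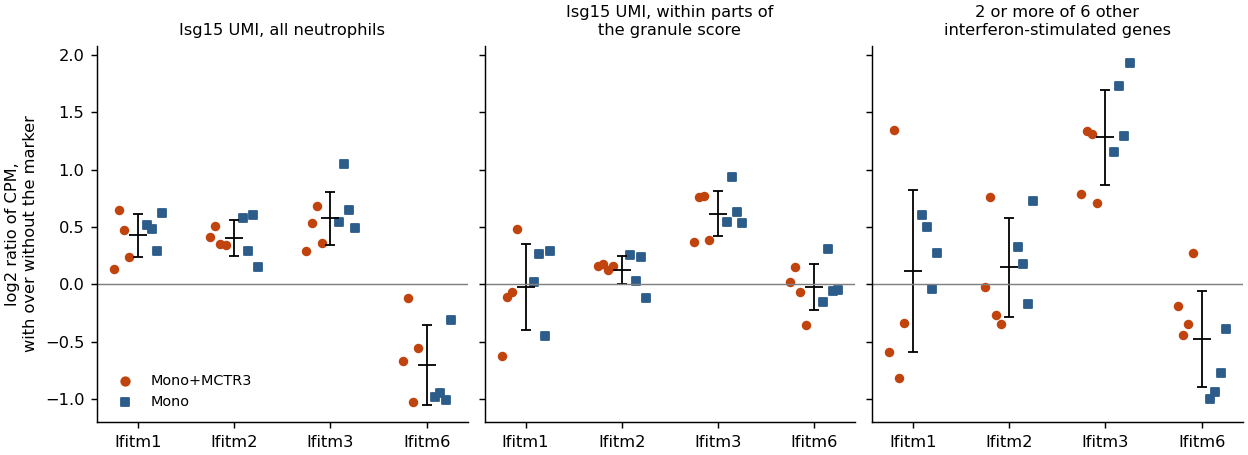
Log2 ratio of CPM in neutrophils with the marker over those without it (vertical axis; 0 means equal) for the 4 Ifitm genes, with 1 point per mouse (circles, Mono+MCTR3; squares, Mono) and the mean with SD over 8 mice. The panels use an Isg15 UMI in all neutrophils, an Isg15 UMI within parts of the granule score, and UMIs of at least 2 of 6 other interferon-stimulated genes; Ifitm3 is above 0 in all mice in each panel (means 0.58, 0.62 and 1.28).

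Mono+MCTR3 and Mono mice were then compared, to ask whether treating the transferred monocytes with MCTR3 went along with other Ifitm levels in the joint. In neutrophils none of the 4 genes passed the test. UMIs were summed per mouse and tested with edgeR's quasi-likelihood test, with p-values adjusted by Benjamini and Hochberg over all genes tested. Of 5204 genes in neutrophils, 0 passed an adjusted p of 0.05 (0%), 239 had an unadjusted p under 0.05, and edgeR's likelihood ratio test and DESeq2 called 7 genes each, no Ifitm gene among them.

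Ifitm1 had 531, 447, 634 and 982 CPM in neutrophils of Mono+MCTR3 mice 1 to 4, against 987, 1300, 1329 and 298 CPM in Mono mice 1 to 4. Mono mouse 4 was below all other mice, whereas Mono mice 1, 2 and 3 were above all 4 Mono+MCTR3 mice, mouse 1 by a narrow margin. The log2 fold change was -0.50 ± 0.33 (SE; edgeR adjusted p = 0.989). Without Mono mouse 4 it was -0.77 ± 0.19, with an unadjusted p under 0.05 and an adjusted p of 0.385 (edgeR). In the mature cluster Ifitm1 had 1012, 1208, 1062 and 1163 CPM in Mono+MCTR3 mice and 1874, 1600, 2151 and 610 CPM in Mono mice, the same arrangement (log2 fold change -0.38 ± 0.25, edgeR adjusted p = 0.804). Leaving out each mouse in turn gave -0.63 to -0.20 there, and without Mono mouse 4 it was -0.63 ± 0.15, with an unadjusted p under 0.05 and an adjusted p of 0.318 (edgeR).

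Ifitm6 had 1397, 2391, 1429 and 1207 CPM in neutrophils of Mono+MCTR3 mice, against 1474, 907, 1656 and 1694 CPM in Mono mice (log2 fold change 0.27 ± 0.28, edgeR adjusted p = 0.989). Mono+MCTR3 mouse 2 was the highest and Mono mouse 2 the lowest. These were also the mice with the highest and the lowest median granule score among their neutrophils (-0.34 and -2.36), with the other mice between -2.15 and -1.36, and the part of stage in the group values was not tested. Without Mono+MCTR3 mouse 2 the log2 fold change of Ifitm6 was -0.088.

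Ifitm2 had 1724, 1302, 1457 and 2102 CPM in Mono+MCTR3 mice and 1749, 2208, 1988 and 1117 CPM in Mono mice (-0.01 ± 0.16, edgeR adjusted p = 0.996). Ifitm3 had 1228, 1242, 1054 and 1235 CPM in Mono+MCTR3 mice and 1253, 1312, 1022 and 1158 CPM in Mono mice (0.09 ± 0.14, edgeR adjusted p = 0.990). The groups overlapped for both genes, and for Ifitm3 all 8 mice lay between 1022 and 1312 CPM.

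Within the neutrophil clusters, 0 of 24 comparisons of an Ifitm gene between the groups passed the threshold in edgeR, and 1 had an unadjusted p under 0.05. The likelihood ratio test and DESeq2 called 0 of the 24 as well. The share of all genes called was 0.0811% in the mature cluster and 0% in each of the other 5. The exception at an unadjusted p was Ifitm6 in the interferon response cluster, with 545, 664, 564 and 651 CPM in Mono+MCTR3 mice and 212, 351, 389 and 388 CPM in Mono mice. The groups did not overlap, but the counts were small, 10 to 19 UMIs per Mono+MCTR3 mouse and 5 to 33 UMIs per Mono mouse. The log2 fold change was 0.97 ± 0.27 (edgeR adjusted p = 0.870 over 413 genes, of which 19 had an unadjusted p under 0.05). That cluster held 2.68%, 1.57%, 1.19% and 2.41% of neutrophils in Mono+MCTR3 mice, against 4.72%, 5.46%, 3.41% and 1.36% in Mono mice, with Mono mouse 4 in the range of the Mono+MCTR3 mice.

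**Figure D4:**
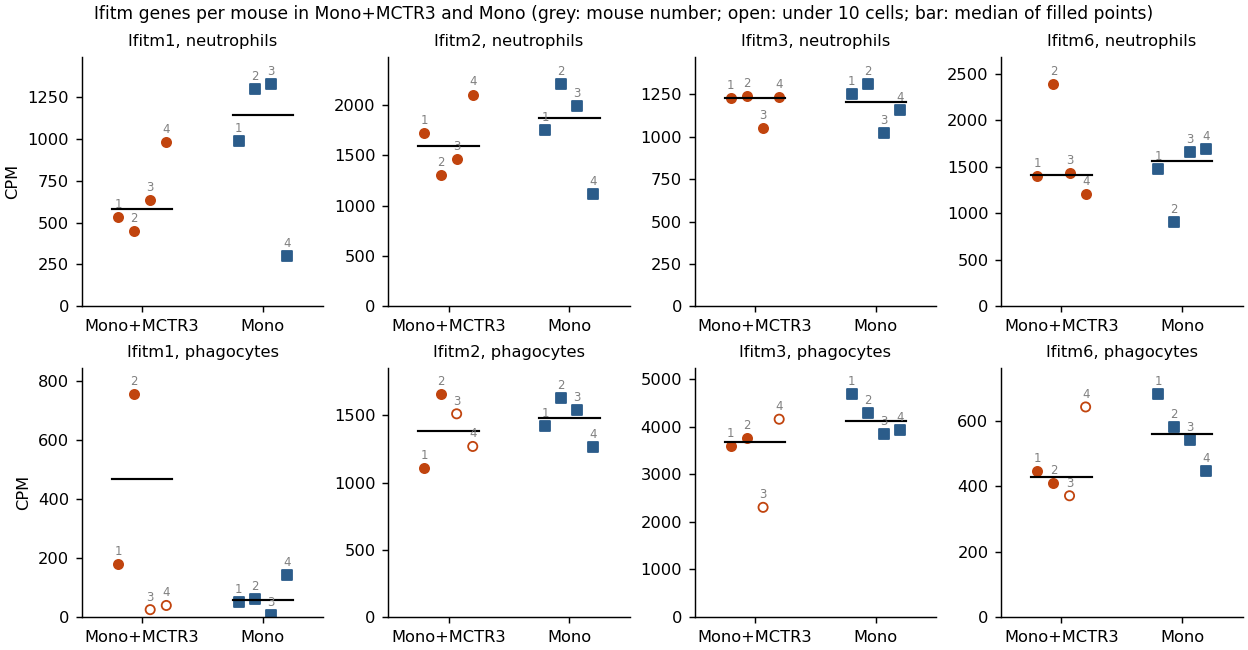
CPM of each Ifitm gene (vertical axis, linear from 0) per mouse in Mono+MCTR3 (circles) and Mono (squares), in neutrophils (upper row) and mononuclear phagocytes (lower row), with the mouse number in grey, open symbols for mice with fewer than 10 cells and bars at the median of filled points. The groups overlap in every neutrophil panel, and Ifitm1 in phagocytes is highest in Mono+MCTR3 mouse 2 (756 CPM).

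In mononuclear phagocytes, the values of Ifitm1 rested on few mice and few cells. Only Mono+MCTR3 mice 1 and 2 had at least 10 such cells (31 and 91), against 44, 33, 55 and 82 cells in Mono mice 1 to 4, so mice 3 and 4 of the Mono+MCTR3 group (8 and 6 cells) were left out of the fit. Ifitm1 had 180 and 756 CPM in Mono+MCTR3 mice 1 and 2, against 49.7, 62.1, 7.03 and 141 CPM in Mono mice. Both tested Mono+MCTR3 mice were above all Mono mice, while the 2 mice left out had 24.8 and 39.0 CPM. The log2 fold change was 2.76 ± 0.65 (edgeR adjusted p = 0.30). Among 3753 genes 1 passed (0.0266%), and 0 of the 4 Ifitm genes passed in edgeR's quasi-likelihood test, with 2 of them (Ifitm1 and Ifitm6) at an unadjusted p under 0.05. Ifitm1 was called by the likelihood ratio test of edgeR (adjusted p = 0.0232) and by edgeR's quasi-likelihood test with no filter on low counts (2.79, adjusted p = 2.7e-29), and was not called by DESeq2 (adjusted p = 0.964). Of the 590 Ifitm1 UMIs in phagocytes, 434 came from 7 cells of Mono+MCTR3 mouse 2. With 2 mice in that group, the adjusted p of the unfiltered fit cannot be read as a measure of variation between mice. The share of all genes called was stated for the main fit only (0.0266%), so the calls of the alternatives lack a background. The number of all genes with an unadjusted p under 0.05 in phagocytes is not given here either. With the Ifitm genes kept among the genes used for clustering, the sign of the Ifitm1 log2 fold change turned (-0.62 ± 0.68, edgeR adjusted p = 0.749). Leaving out each mouse in turn gave log2 fold changes of 1.29 to 3.72. Without Mono+MCTR3 mouse 2 the log2 fold change was 1.29 and without Mono+MCTR3 mouse 1 it was 3.43. Both of these fits set 1 Mono+MCTR3 mouse against 4 Mono mice, and the lone mouse is assumed to vary like the Mono mice. With the mice of 5 or more cells added, chosen after the data were seen, it was 2.22 ± 0.75 (edgeR adjusted p = 0.655).

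A small number of cells held most of the Ifitm1 UMIs. Of 583 Ifitm1 UMIs in the classical monocyte-like cluster, 522 came from 11 of its 303 cells, each with at least 6 Ifitm1 UMIs and at most 200. Mono+MCTR3 mouse 2 gave 7 of these cells, with 434 UMIs, 1 came from Mono+MCTR3 mouse 1 (28 UMIs), and 3 from Mono mouse 4 (60 UMIs). The limit of 6 UMIs was chosen after the values were seen, so what follows describes these cells without a test. Without them, Ifitm1 had 46.1 and 28.0 CPM in phagocytes of Mono+MCTR3 mice 1 and 2 (9 and 15 UMIs), against 49.7, 62.1, 7.03 and 26.3 CPM in Mono mice (15, 11, 2 and 13 UMIs), and the groups overlapped. Because the cells were picked by their Ifitm1 UMIs, leaving them out lowers Ifitm1 by construction in the mice that held them. The overlap shows where the UMIs lay and nothing more. In 10 of the 11 there were UMIs of the MHC class II genes H2-Aa, H2-Ab1 and H2-Eb1. The 12 dendritic cell markers made up a median of 12.5% of their UMIs (0.0342% to 14.3%), against 0.0401% in the other 292 cells (0% to 17.5%). Most of these UMIs were of H2-Aa (1948), H2-Ab1 (2126), H2-Eb1 (1420) and Cd74 (3950), with at most 78 for any other of the 12. These genes also led the macrophage-like cluster at resolution 1.0, so the share does not by itself mark dendritic cells.

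Lyz2 had 2366 CPM in these 11 cells and 32806 CPM in the other cells of the cluster, and classical monocyte markers made up medians of 0.543% and 4.57% of UMIs in the 2 sets. The integrin Itgax and the lectin Cd209a, which mark dendritic cells, had 187 and 858 CPM in the 11 cells, against 11.3 and 202 CPM in the others. Of the same 12 markers, Xcr1, Clec9a and Fscn1 were at 0 UMIs in the 11 cells (Fscn1 had 14.4 CPM in the others), and the chemokine receptor Ccr7 had 11.0 CPM in the 11 cells, against 51.0 CPM in the others. The 13 macrophage markers made up a median of 0.0188% of UMIs in the 11 cells, with 4 of the 13 at 0 (Ms4a7, Mrc1, Pf4 and Cx3cr1), against 0.220% in the others. Mast cell or basophil markers were at a median of 0% in both sets, with 8 of 10 at 0 in the 11 cells, and neutrophil markers had medians of 0.582% and 0.374%. The shares of these cells differed between the mice with the Ifitm1 level, and their part in the group difference was not tested.

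The other genes did not pass the test in phagocytes. Ifitm3 had 3593 and 3758 CPM in Mono+MCTR3 mice 1 and 2, against 4678, 4284, 3845 and 3932 CPM in Mono mice (log2 fold change -0.20 ± 0.13, edgeR adjusted p = 0.805). Ifitm6 had 448 and 409 CPM in Mono+MCTR3 mice, against 682, 581, 541 and 448 CPM in Mono mice (-0.40 ± 0.18, edgeR adjusted p = 0.719). Ifitm2 had a log2 fold change of -0.07 ± 0.18 (edgeR adjusted p = 0.987). The ranges of the groups overlapped for Ifitm2 and Ifitm6. For Ifitm3 both tested Mono+MCTR3 mice lay below all Mono mice, by less than the spread among the Mono mice. Mono+MCTR3 mice 3 and 4, left out of the fit for few cells, had 2304 and 4156 CPM of Ifitm3. The latter is above Mono mice 3 and 4. Their Ifitm6 levels were 372 and 644 CPM. Over the alternatives the log2 fold change ran from -0.72 to -0.12 for Ifitm3, from -0.77 to -0.30 for Ifitm6 and from -0.60 to 0.22 for Ifitm2. None of the 3 was called in any of them, but all 3 had an unadjusted p under 0.05 in edgeR at resolution 0.3, with doublets removed and with the Ifitm genes kept for clustering, and Ifitm3 and Ifitm6 also with 10 components and with a mitochondrial limit of 10%. How many of all genes were under that limit in these fits is not given here. The unadjusted p-values therefore do not set the Ifitm genes apart from other genes.

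In lymphocytes the Ifitm genes were near the level of free RNA, and the filter on low counts left only Ifitm2 in T cells to be tested (0.46 ± 0.43, edgeR adjusted p = 0.995). Leaving out each mouse in turn gave 0.15 to 1.25 for it, with 1.25 ± 0.40 without Mono mouse 2 (unadjusted p under 0.05, adjusted p = 0.655 in edgeR). No gene was called in T, B or NK cells (0% of 3435, 2751 and 2236 genes). In edgeR's quasi-likelihood test, unadjusted p-values under 0.05 were found for 178, 135 and 111 genes, while the likelihood ratio test called 1, 2 and 0 genes and DESeq2 0 in each. Group differences of the Ifitm genes were thus not detectable at this depth in B and NK cells.

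The Ifitm values stood beside those of a list of 60 other interferon-stimulated genes, chosen like the members with results of these data known. In neutrophils 36 of the 60 were tested, 0 passed in either direction, 30 had log2 fold changes below 0, and their median was -0.17 against 0.0027 for all genes tested. The lowest were Ifit3 (-2.06 ± 0.36, edgeR adjusted p = 0.0727), which encodes an RNA-binding antiviral protein, and Oasl1 (-1.02), and the highest were the RNA sensors Ddx58 (0.19) and Dhx58 (0.18). Ifit3 had 5.87, 3.53, 2.40 and 3.48 CPM in Mono+MCTR3 mice 1 to 4, against 14.4, 30.8, 12.4 and 12.4 CPM in Mono mice 1 to 4, so the groups did not overlap for that gene, in counts of 4 to 63 UMIs. Isg15 itself had 212, 147, 183 and 290 CPM in Mono+MCTR3 mice, against 296, 380, 309 and 200 CPM in Mono mice (-0.44 ± 0.17, edgeR adjusted p = 0.989). Within the mature and the stefin-high clusters the median of the list was 0.12 and 0.13 over 19 and 12 genes tested. It was -0.047 in the inflammatory cluster (15 genes, 10 below 0), -0.14 and -0.034 in granule clusters 7 and 8 (8 and 5 genes), and -0.16 in the interferon response cluster (14 genes).

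In phagocytes 34 of the list were tested and 0 passed, 29 were below 0, and the median was -0.36 against -0.0081 for all genes. Ifit1 (-6.54) and the chemokine Cxcl10 (-3.97) were lowest, and Dhx58 (0.60) and Bst2 (0.33), which encodes tetherin, were highest. These values rest on 2 Mono+MCTR3 mice, with 31 and 91 cells. The counts behind Ifit1 and Cxcl10 are not given here, so the size of their fold changes is uncertain. In T cells 22 were tested, 17 were below 0 and the median was -0.35, from Isg15 (-1.59) and Gbp2 (-1.29) to Ifi35 (0.09) and Gbp7 (0.11). In B cells the median of 14 genes was -0.01, from Irf1 (-0.71) and Sp100 (-0.39) to Ifi35 (0.32) and Irf9 (0.33). In NK cells the median of 12 genes was 0.15, from Ifi209 (-0.29) and Irf1 (-0.06) to Epsti1 (0.26) and Gbp7 (0.28). No gene of the list passed in T, B or NK cells. Of 12 genes of interferon receptors and their signalling kinases, 10 were tested in neutrophils, 8 in phagocytes, 6 in B cells, 9 in T cells and 5 in NK cells, and 0 passed.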

How the data were processed

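The authors sequenced CD45+ joint cells on the 10x Genomics 3′ platform, ran Cell Ranger on GRCm38 (version not given in the sources used here), aggregated each group separately and deposited 1 table of raw UMI counts per gene and cell for each group. Mice were told apart by barcode suffix. The suffix was not mapped to a labelled animal.

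Cells were filtered as stated in the report (40 barcodes were below the lower limits, 40 had over 3000 genes and 209 over 5% mitochondrial UMIs) and clustered with Seurat 5.3.0 in R 4.3.3 (20 components, resolution 0.5), with the Ifitm genes left out of the variable genes. Each cluster was named for the type whose marker list had the highest mean log2 fold there (at least 3 markers detected in 10% of cells), and stayed unnamed where its 10 leading genes held more markers of another class. So 2 clusters stayed outside the classes, one of 642 cells with B cell markers and MHC class II genes among its leading genes and one of 106 cells led by hemoglobin, granule and cycling genes. Doublets were called with Scrublet in scanpy 1.11.5 and removed only in an alternative. Summed counts of mice with at least 10 cells were tested with edgeR 4.0.16 (TMM, filterByExpr, quasi-likelihood) within each class or cluster. DESeq2 1.42.0, edgeR's likelihood ratio test, other filters and clusterings, and leaving out each mouse were alternatives. Sequences and GRCm38 promoter windows are from RefSeq and GENCODE. Replicate mice of a group differed in their neutrophil counts by a chi-square of 5.98 to 27.5 per degree of freedom, so no library was a copy of another. UMIs of 1 cell are not independent, so this value cannot tell separate mice from separate loads of 1 cell suspension. Mice are the unit of error.

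Members and gene lists were chosen with earlier results of these data known. Besides the members, genes were named by rule: the 2 highest and 2 lowest of the interferon list in each class when none passed, and the 5 genes most like each member across clusters of at least 20 cells. The cells with at least 6 Ifitm1 UMIs and their markers were chosen after the values were seen.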

Additional observations from a re-analysis of the deposited data

Results flagged for a closer look

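Single mice far from the other 3 of their group were looked for in 92 groups of 4 mice, by the gap over the range (Dixon's limit at 95%), and 5 were found. Chance gives about 1 in 20 such groups. Ifitm3 in neutrophils of Mono+MCTR3 mouse 3 was 1054 CPM, below the 1228 to 1242 CPM of the other Mono+MCTR3 mice. The log2 ratio of Ifitm6 in neutrophils with an Isg15 UMI over those without was -0.31 in Mono mouse 4, against -1.01 to -0.94 in the other Mono mice. The other 3 were in T cells, where the counts were few. Ifitm1 was 3.44 CPM in Mono mouse 4 (2 UMIs; other Mono mice 17.8 to 19.0 CPM), Ifitm3 was 77.1 CPM in Mono mouse 2 (29 UMIs; others 17.8 to 23.8 CPM) and Ifitm6 was 90.3 CPM in Mono mouse 3 (19 UMIs; others 6.88 to 15.96 CPM).

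Among family genes outside the report's comparisons, Ifitm10 had 405 UMIs in 341 cells and Ifitm5 had 26 UMIs in 26 cells, both above the 3 counts that a count of 0 allows. Ifitm7 had 1 UMI.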

How the results depend on the processing

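No paired analysis was possible because mice were named by barcode suffix within each group and equal numbers do not mark a shared animal, litter or batch. The count of Ifitm genes called stayed at 0 in neutrophils, their clusters and B, T and NK cells under every alternative run. In mononuclear phagocytes 1 Ifitm gene (Ifitm1) was called in 3 of 19 alternatives (range 0 to 1). These were edgeR's likelihood ratio test, the fit with no filter on low counts and a fit that left out 1 mouse. Which mouse that was is not given here. Fits that left 1 Mono+MCTR3 mouse against 4 give an effect size only, because the lone mouse is assumed to vary like the Mono mice. The log2 fold change of Ifitm1 in phagocytes was -0.62 when the Ifitm genes were kept among the variable genes, which redrew the phagocyte clusters. Leaving out each mouse in turn gave log2 fold changes of -0.13 to 0.069 for Ifitm2 and -0.088 to 0.42 for Ifitm6 in neutrophils, and -0.43 to 0.22 for Ifitm2 in phagocytes, so their signs depended on single mice (0.038 for Ifitm2 without Mono+MCTR3 mouse 2, 0.035 without Mono mouse 3, 0.021 without Mono mouse 1, 0.068 without Mono+MCTR3 mouse 3, 0.069 without Mono mouse 2).

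The Isg15 link was 0.12 for Ifitm1 and 0.15 for Ifitm2 with 6 other interferon-stimulated genes as the marker, and -0.024 for Ifitm1 and -0.023 for Ifitm6 within parts of the granule score. With at least 2 Isg15 UMIs it was -1.52 for Ifitm6 and 0.67 for Ifitm1 (above 0 in 7 of 8 mice), and with cells thinned it was -1.03 for Ifitm6. That of Ifitm3 stayed above 0 in all 16 alternatives (0.51 to 1.28). The log2 ratio of early over late neutrophils moved to -4.76, -4.68 and -3.62 for Ifitm1 (resolution 0.3, resolution 1.0, 10 components), to -1.99 for Ifitm2 and 4.12 for Ifitm6 (5 parts of the granule score), to -0.22 for Ifitm3 (resolution 0.3) and to 3.21 for Ifitm6 (doublets removed). The ratio of the interferon response cluster to other neutrophils moved to 1.52, 1.55 and 1.39 for Ifitm3 (resolution 1.0, Ifitm genes kept, doublets removed). No such cluster formed at resolution 0.3 or with 10 components, so those alternatives gave no value. The causes were not tested. Depth limits the lymphocytes, where the Ifitm genes other than Ifitm2 in T cells were too low to test, and the phagocytes, where the Mono+MCTR3 group had 2 mice with enough cells.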

Other observations

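In a fibroblast-like cluster of 20 cells, Ifitm3 had 2227 CPM and Ifitm2 1546 CPM over the pooled cells, whereas Ifitm1 was represented by 3 UMIs. In a plasmacytoid dendritic cell-like cluster of 49 cells, Ifitm3 had 109 CPM, or 9.10% of its neutrophil level, against 0.747% to 2.74% for the 8 neutrophil genes used to gauge free RNA.

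When the phagocytes were divided more finely (resolution 1.0), Ifitm3 was lower in a macrophage-like cluster of 136 cells with MHC class II genes, at 2020 and 1837 CPM in Mono+MCTR3 mice and 1172, 1367 and 1795 CPM in Mono mice, than in the classical monocyte-like cluster of 167 cells, at 4575 and 5392 CPM in Mono+MCTR3 mice and 4870, 6290, 4563 and 6670 CPM in Mono mice. The ranges of these 2 clusters did not overlap.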
